A study of Mus musculus with 12 samples.

Results

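Transcripts of 9 genes of the mitogen-activated protein kinase (MAPK) cascades were followed in bone marrow-derived macrophages (BMDMs). They were chosen by name as members of the ERK, JNK and p38 arms, with earlier results of these data known. The 9 are Mapk3, Mapk8, Mapk9, Mapk14, Map2k1, Map2k3, Map2k4, Map3k7 and Mapkapk2. All 9 were among the 12960 genes counted by RNA sequencing, and all 9 were among the 10822 genes with enough counts to be tested. BMDMs came from wild-type (WT) mice or from mice without the β1 subunit of the AMP-activated protein kinase (AMPKβ1-/-, a whole-body knockout, called KO in the plots). They were grown from marrow with L929-conditioned medium, a source of M-CSF, and were kept for 6 h either with vehicle (DMSO at 0.1%) or with PF-06409577 (PF) at 10 μM, an activator of β1-containing AMPK. The 4 groups had 3 libraries each. No inflammatory stimulus is named for these libraries, and the age, sex and strain of the marrow donors are not given in the sources used here. No source says whether the 3 libraries of a group came from separate mice, so p-values measure the spread between these libraries, which may be technical.

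MAPK signalling runs through kinases in series. A MAP kinase kinase kinase (MAP3K) phosphorylates a MAP kinase kinase (MAP2K), which phosphorylates a MAPK on a threonine and a tyrosine of its activation loop. In macrophages these cascades carry signals from Toll-like and cytokine receptors to inflammatory transcription and mRNA stability, and their activity is set mainly by phosphorylation, which transcript counts do not measure. In the ERK arm MEK1 (Map2k1) activates the kinase ERK1 (Mapk3). In the JNK arm MKK4 (Map2k4) acts on JNK1 (Mapk8) and JNK2 (Mapk9). In the p38 arm MKK3 (Map2k3) activates p38α (Mapk14), which activates the kinase MK2 (Mapkapk2). TAK1 (Map3k7) stands above the JNK and p38 arms and links receptor complexes to both.

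The stretches of coding sequence that hold the activation sites are shown because they define which arm each kinase belongs to and how far related kinases can share reads. Sequences and positions are from GENCODE M21 (GRCm38), read 5′ to 3′ on the coding strand, and each lies within 1 exon. In the MAPKs the capitals mark the codons of the phosphorylated threonine, the residue after it, and the phosphorylated tyrosine; that middle residue is glutamate in ERK1, proline in JNKs and glycine in p38α.
Mapk3 (chr7:126763443-126763481, plus strand, exon 4 of 9): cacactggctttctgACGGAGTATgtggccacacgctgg
Mapk8 (chr14:33392988-33393026, minus strand, exon 6 of 12): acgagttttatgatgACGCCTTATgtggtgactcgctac
Mapk9 (chr11:49872815-49872853, plus strand, exon 6 of 12): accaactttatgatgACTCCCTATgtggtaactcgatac
Mapk14 (chr17:28728384-28728422, plus strand, exon 7 of 12): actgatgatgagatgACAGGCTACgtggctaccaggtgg
In the MAP2Ks the capitals run from the first to the last codon of the pair of phosphorylated residues, a serine and then a serine in MEK1 or a threonine in MKK3 and MKK4.
Map2k1 (chr9:64193714-64193758, minus strand, exon 6 of 11): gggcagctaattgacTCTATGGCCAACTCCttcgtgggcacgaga
Map2k3 (chr11:60946712-60946756, plus strand, exon 8 of 12): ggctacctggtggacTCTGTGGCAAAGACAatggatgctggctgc
Map2k4 (chr11:65706999-65707043, minus strand, exon 7 of 11): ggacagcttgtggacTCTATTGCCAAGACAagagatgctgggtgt
Over these 39 bases Mapk8 and Mapk9 were identical at 32 positions, against 19 to 21 for the pairs of MAPKs of different arms. The 31-base words of 1 transcript per gene, that with the longest coding sequence, were looked up in other genes. None of those of Mapk8, Mapk9, Mapk14, Map2k4 or Mapkapk2 occurred in another gene. Other transcripts of the 9 were not checked. For Mapk8 the transcript checked had 2557 such words, where its longest coding transcript has 5756 bases. The share was 1.41% in Map2k1, all with Map2k2, 1.71% in Map2k3, 3.84% in Mapk3 and 9.52% in Map3k7, of which 9% was in the gene model Gm8188. Gm8188 is not among the counted genes, so the Map3k7 counts are uncertain by the reads shared with it.

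The libraries held 8935609 to 14358180 counts. Prkab1, which encodes AMPKβ1, had 399 to 490 counts in the WT libraries and 57 to 120 in the AMPKβ1-/- libraries, so the labels held in every library (log2 fold change −2.57 ± 0.12 SE with vehicle, adjusted p = 8.85e-09 by edgeR's quasi-likelihood test). The macrophage markers were abundant, with all 10 of 10 tested and a summed level of 26100 to 30900 CPM (counts scaled by library total and TMM factor) across libraries. Of 8 granulocyte markers 4 were counted (S100a8, S100a9, Mpo and Ltf), at a summed 0.318 to 0.958 CPM. The other granulocyte markers (Ly6g, Elane, Camp and Retnlg) and all 8 lymphoid markers were not among the counted genes. The 7 counted stromal markers summed to 1.59 to 4.28 CPM in WT and 3.05 to 10.8 CPM in AMPKβ1-/- libraries, and their part in the results was not tested. In a pool of cells, fewer cells of a type and less RNA per cell cannot be told apart.

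The libraries also differed in how strongly GC-rich genes were counted, and this moved with the groups. Against the average library, log2 CPM changed per 10 percentage points of transcript GC content by 0.36 to 0.72 in the WT vehicle libraries, −0.051 to 0.37 in WT PF, −0.36 to −0.10 in AMPKβ1-/- vehicle and −0.51 to −0.33 in AMPKβ1-/- PF. Every AMPKβ1-/- library lay below every WT library. Since the 9 genes span 40.1% GC (Mapk8) to 57.6% (Mapk3 and Mapkapk2), the main values are also given with a smooth trend of GC content and transcript length removed from each library. Over the tested genes as a whole, such a trend removes any difference that runs along GC content or length, and technical and other sources of it cannot be told apart. A relation to GC content can remain among the 9 genes.

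The abundance of the 9 transcripts spanned a wide range, with the ERK and p38 arms high and the JNK arm and TAK1 low. Per kilobase of the longest coding transcript, Mapk3 was first in the WT vehicle libraries at 278 ± 27.2 CPM per kb (mean ± SD, n = 3), followed by Mapkapk2 at 243 ± 8.68. Map2k3 (75.3 ± 3.70) and Mapk14 (73.1 ± 2.48) came next, and they were the only neighbours in this order whose libraries overlapped in the WT vehicle group. Map2k1 stood at 41.9 ± 5.61, Map2k4 at 7.64 ± 0.917, Mapk9 at 6.19 ± 0.770, Map3k7 at 3.65 ± 0.653 and Mapk8 at 0.426 ± 0.129 CPM per kb. This order of the 9 means was the same in all 4 groups, although Mapk3 overlapped with Mapkapk2 in both PF groups, Mapk9 with Map3k7 in every group but WT vehicle, and Map2k3 with Mapk14 also in AMPKβ1-/- PF. Mapk8, which encodes JNK1, rested on the fewest reads, 15 to 97 counts per library, while Mapkapk2 had 4989 to 7839.

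**Figure D1:**
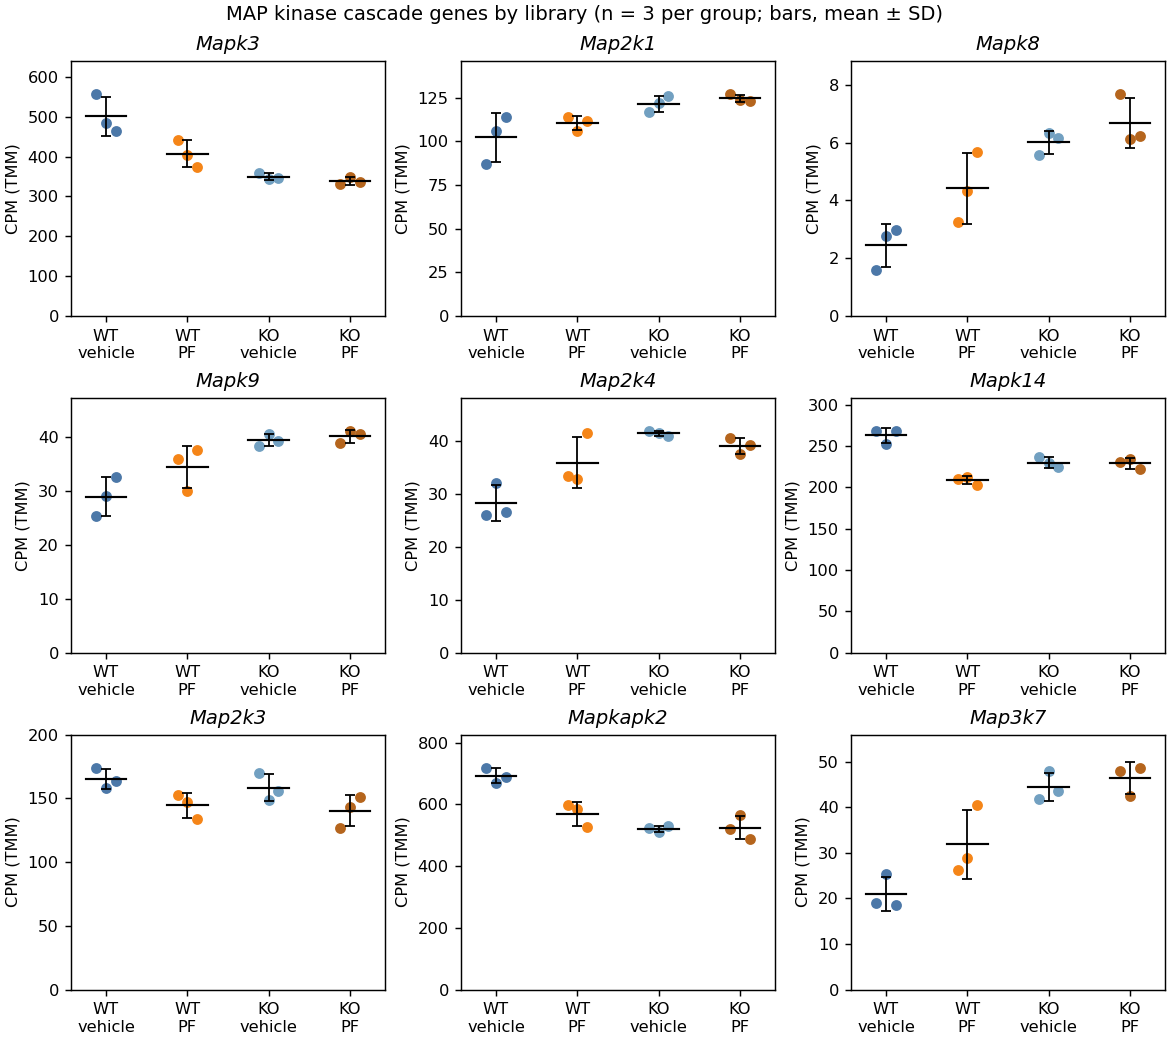
TMM-normalized CPM (y axis, from 0) of each of the 9 genes in the 4 groups (x axis), with 1 point per library and bars for mean ± SD (n = 3). Map3k7 was higher and Mapk3 lower in every AMPKβ1-/- library than in every WT library, and Mapk14 was lowest in the 3 WT PF libraries.

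With PF in WT BMDMs, 3 of the 9 transcripts rose (Mapk8, Map2k4 and Map3k7) and 3 fell (Mapk3, Mapk14 and Mapkapk2), at an adjusted p below 0.05 over all tested genes. The background was 6.99% of tested genes higher and 8.95% lower. The changes were modest: Mapk8 alone also passed a log2 fold change of 0.8, as 1.52% of tested genes did. Libraries of vehicle and PF did not overlap for 7 of the 9, the 6 called and Map2k3, against 32.2% of tested genes. In AMPKβ1-/- BMDMs, PF changed none of the 9 by edgeR, with 0 also at an unadjusted p below 0.05. There edgeR called 0.0554% of tested genes, 4.98% had an unadjusted p below 0.05, and 14.5% did not overlap. Of the 9, 1 did not overlap (Map2k4, lower). DESeq2 called 0 of the 9 there, and 45 higher and 1 lower over all genes. A call in WT and none in AMPKβ1-/- does not by itself show that the responses differ, and the test of that difference is given for each gene.

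With vehicle, AMPKβ1-/- BMDMs differed from WT in 8 of the 9 transcripts, with 5 higher (Mapk8, Mapk9, Map2k1, Map2k4 and Map3k7) and 3 lower (Mapk3, Mapk14 and Mapkapk2). Differences were common in this comparison: 29.7% of tested genes were higher and 30.0% lower, 17.8% passed the log2 threshold of 0.8 (2 of the 9, Mapk8 and Map3k7), and the libraries of 62.9% did not overlap (8 of the 9). With PF in both genotypes 3 of the 9 still differed, Mapk8 and Map3k7 higher and Mapk3 lower in AMPKβ1-/-, against 24.1% of tested genes higher and 22.9% lower. The libraries of 6 of the 9 did not overlap there, against 59.9% of tested genes. The WT vehicle libraries enter both the PF comparison in WT and the vehicle comparison of genotypes, so a shared direction between these is partly built in.

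**Figure D2:**
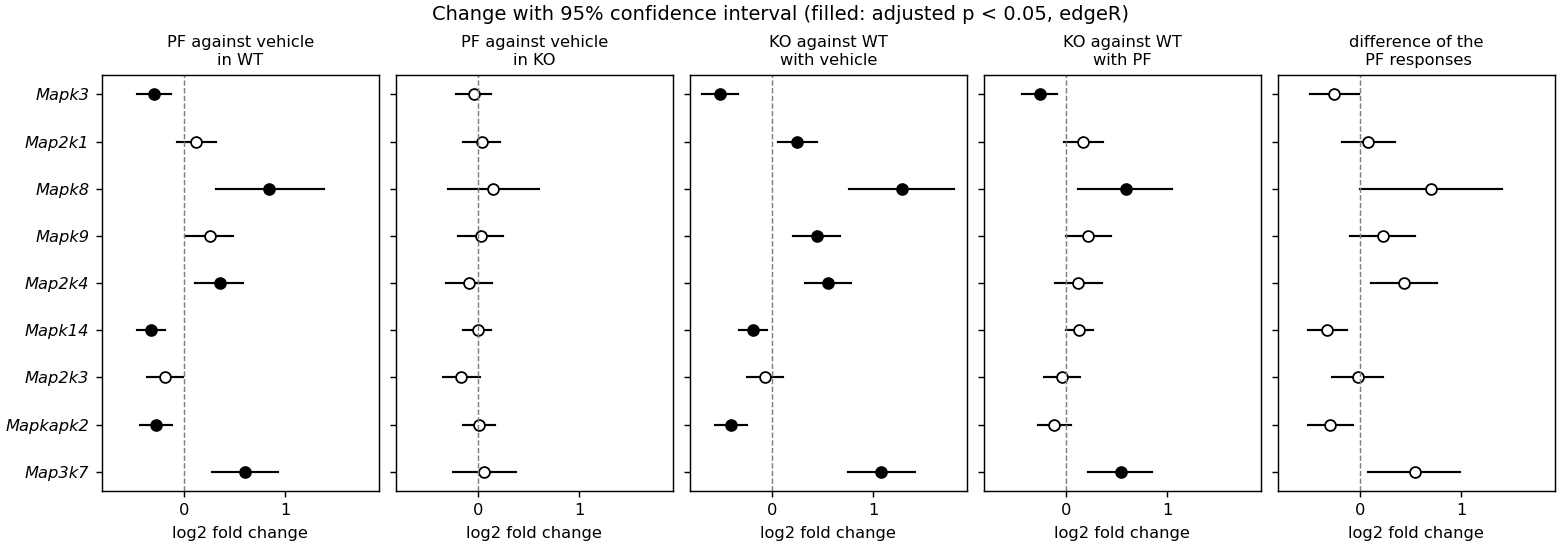
Log2 fold change (x axis) with its 95% confidence interval for each gene (y axis) in the 4 comparisons and in the difference of the PF responses (WT minus KO), from 1 edgeR fit of 12 libraries; filled points had an adjusted p below 0.05. There were 6 filled points for PF in WT, 0 for PF in KO, 8 for KO against WT with vehicle, 3 with PF and 0 for the difference.

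In the ERK arm, the ERK1 transcript was lower with PF in WT and with loss of AMPKβ1, while that of its activator MEK1 fell in neither. Mapk3 (chromosome 7) stood at 556, 483 and 463 CPM in the WT vehicle libraries, 442, 404 and 375 with PF, 359, 343 and 346 in AMPKβ1-/- with vehicle, and 331, 350 and 336 in AMPKβ1-/- with PF. Every WT vehicle library was above every other library. The log2 fold change was −0.30 ± 0.082 (SE) with PF in WT (edgeR adjusted p = 0.0262), −0.52 ± 0.082 for AMPKβ1-/- against WT with vehicle (adjusted p = 0.000155) and −0.26 ± 0.082 between genotypes with PF (adjusted p = 0.0159). In AMPKβ1-/- BMDMs the PF change was −0.045 (95% interval −0.22 to 0.13), and the difference of the responses was −0.26 (adjusted p = 0.336). With the GC and length trend removed, Mapk3 passed the test in none of these, with −0.086 for PF in WT, −0.076 between genotypes with vehicle and 0.0094 with PF. The PF call in WT was also lost when library 1 of WT vehicle or either library 2 or library 3 of WT PF was left out (−0.22, −0.29 and −0.24, adjusted p = 0.109, 0.0879 and 0.141). The call between genotypes with PF was lost without library 1 of WT PF or library 1 or 3 of AMPKβ1-/- PF (adjusted p = 0.0764, 0.0625 and 0.0528) and with scaling by library size alone (−0.11, adjusted p = 0.161).

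Map2k1, the MEK1 gene that feeds ERK1, stood at 87.0, 106 and 114 CPM in WT vehicle and 114, 106 and 112 in WT PF. These groups overlapped, and the log2 change of 0.12 ± 0.089 had an adjusted p of 0.341 by edgeR. In AMPKβ1-/- BMDMs Map2k1 stood at 117, 122 and 126 CPM with vehicle, above every WT vehicle library, and at 127, 124 and 123 with PF. The vehicle difference between genotypes was 0.25 ± 0.089 (adjusted p = 0.0239). It was lost without WT vehicle library 1 (0.15, adjusted p = 0.129) or without AMPKβ1-/- vehicle library 2 or 3 (adjusted p = 0.0609 and 0.0806). Removal of the GC and length trend made it larger, at 0.44 (adjusted p = 0.000515), and Map2k1 was then also higher in AMPKβ1-/- with PF (0.32, adjusted p = 0.00425), where the deposited counts gave 0.17 (adjusted p = 0.126).

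In the JNK arm all 3 genes were higher in AMPKβ1-/- than in WT BMDMs with vehicle in the deposited counts. With the GC and length trend removed none of the 3 was called (Mapk8 0.032, Mapk9 −0.053 and Map2k4 0.044). Mapk8, for JNK1, had 15, 30 and 30 counts in WT vehicle (1.60, 2.77 and 2.99 CPM), 38, 46 and 74 in WT PF (3.26, 4.31 and 5.69 CPM), 61, 97 and 58 in AMPKβ1-/- vehicle (5.56, 6.33 and 6.15 CPM) and 88, 78 and 67 in AMPKβ1-/- PF (7.67, 6.12 and 6.23 CPM). Each WT PF library lay above each WT vehicle library, and the AMPKβ1-/- libraries did not overlap with WT vehicle. The change was 1.79-fold with PF in WT (log2 0.84 ± 0.25, adjusted p = 0.0369) and 2.43-fold between genotypes with vehicle (log2 1.28 ± 0.24, adjusted p = 0.000494) by edgeR. With PF the genotypes differed by 0.59 ± 0.22 (adjusted p = 0.0376), and in AMPKβ1-/- the PF change was 0.15 (95% interval −0.30 to 0.60). The difference of the responses, 0.70 with an interval of −0.0047 to 1.40, had an adjusted p of 0.353.

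The Mapk8 values depended on how the counts were treated. With the GC and length trend removed, the PF change in WT was 0.43 (adjusted p = 0.185), the genotype difference with vehicle 0.032 (adjusted p = 0.936), and that with PF turned to −0.57 (adjusted p = 0.0074). The PF call in WT was lost on leaving out, of WT vehicle, library 1 (0.63, adjusted p = 0.14) or 3 (1.00, 0.0565), or, of WT PF, number 2 (0.86, 0.0859) or 3 (0.61, 0.192). The call between genotypes with PF was lost without WT PF library 1 or 2 or AMPKβ1-/- PF library 1 or 3 (adjusted p = 0.158, 0.0909, 0.147 and 0.0613), and by DESeq2 (adjusted p = 0.0551). Mapk8 had the lowest GC content of the 9 genes, lower than that of all but 4.85% of tested genes.

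Mapk9, for JNK2, stood at 25.3, 29.1 and 32.5 CPM in WT vehicle, 35.9, 30.0 and 37.5 in WT PF, 38.3, 40.6 and 39.3 in AMPKβ1-/- vehicle and 38.8, 41.1 and 40.6 in AMPKβ1-/- PF. The WT groups overlapped, with a log2 change of 0.25 ± 0.11 and an adjusted p of 0.111 by edgeR, or 0.023 with the trend removed. The AMPKβ1-/- vehicle libraries were all above the WT vehicle libraries, by 0.44 ± 0.11 (adjusted p = 0.00251), a difference that was −0.053 (adjusted p = 0.719) with the trend removed. Map2k4, for the JNK activator MKK4, stood at 26.0, 32.1 and 26.6 CPM in WT vehicle and 33.4, 32.7 and 41.5 in WT PF, which did not overlap although the closest libraries were 32.1 and 32.7. In AMPKβ1-/- it stood at 41.8, 41.4 and 40.9 with vehicle and at 40.4, 37.4 and 39.1 with PF. Its spread was the smallest of the 9 in AMPKβ1-/- vehicle, with a coefficient of variation of 1.10%. This rests on 3 libraries of 386 to 635 counts and is not read as a trait of the gene, which had 12% in WT vehicle.

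Map2k4 rose by 0.35 ± 0.11 with PF in WT (edgeR adjusted p = 0.0454) and was 0.55 ± 0.11 higher in AMPKβ1-/- than in WT with vehicle (adjusted p = 0.000672). In AMPKβ1-/- the PF change was −0.088 (95% interval −0.32 to 0.14), and the difference of the responses was 0.43 (interval 0.11 to 0.76, adjusted p = 0.227). With the trend removed the values were 0.054 for PF in WT (adjusted p = 0.782) and 0.044 between genotypes (adjusted p = 0.733). The PF call in WT was lost on leaving out, of WT vehicle, library 1 (0.29) or 3 (0.30), or, of WT PF, number 2 (0.41) or 3 (0.23), at adjusted p of 0.15, 0.129, 0.0663 and 0.224.

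In the p38 arm, the kinase and its substrate kinase fell with PF in WT, and p38α was the transcript whose PF change held under the most settings. Mapk14 stood at 268, 252 and 268 CPM in WT vehicle, 210, 213 and 203 in WT PF, 237, 229 and 224 in AMPKβ1-/- vehicle, and 231, 234 and 222 in AMPKβ1-/- PF. The 3 WT PF libraries were below the other 9 libraries, and the AMPKβ1-/- groups overlapped with each other between the WT groups. With PF in WT Mapk14 was 0.794-fold its vehicle level (log2 −0.33 ± 0.065, 95% interval −0.47 to −0.19, edgeR adjusted p = 0.00587). It was called in 12 of 13 alternative settings, among them every leave-one-out and the removal of the GC and length trend (−0.22, adjusted p = 0.00853). The exception was the fit of the 6 WT libraries alone (adjusted p = 0.0619). In AMPKβ1-/- the PF change was −0.0068 (interval −0.15 to 0.13).

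The difference between the Mapk14 responses was −0.33 ± 0.092 (interval −0.52 to −0.13). It did not pass edgeR's test over all genes (adjusted p = 0.14) and passed that of DESeq2 (−0.32, adjusted p = 0.0197). None of the 9 passed edgeR's test of the difference, for which 0.416% of tested genes were called, and 5 of the 9 had an unadjusted p below 0.05 (Mapk3, Mapk14, Map2k4, Map3k7 and Mapkapk2), against 14.3% of tested genes. DESeq2 gave an adjusted p of the difference for 8 of the 9, all but Mapk8, and called Mapk14 alone of these. Over all genes DESeq2 called 77 higher and 124 lower for this difference. With the GC and length trend removed 0 of the 9 passed by edgeR, against 1.66% of tested genes. The difference was then −0.25 for Mapk14 (adjusted p = 0.0805), 0.60 for Mapk8, 0.37 for Map3k7 and 0.21 for Map2k4. For Mapk3 and Mapkapk2 it was −0.085 and −0.081. The adjusted p of these 5 genes other than Mapk14 was 0.225 to 0.742. The genotype difference of Mapk14 with vehicle, −0.19 ± 0.065 (adjusted p = 0.0195), was lost without WT vehicle library 1 or AMPKβ1-/- vehicle library 2 or 3 (adjusted p = 0.0528, 0.0605 and 0.0717). That difference was 0.0026 with the GC and length trend removed and 0.019 with scaling by library size alone. With PF, Mapk14 was 0.13 ± 0.065 higher in AMPKβ1-/- (adjusted p = 0.102), or 0.25 with the trend removed (adjusted p = 0.000584).

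Mapkapk2, for the p38-activated kinase MK2 that acts on inflammatory mRNA stability, stood at 719, 670 and 690 CPM in WT vehicle, 598, 584 and 526 in WT PF, 523, 511 and 529 in AMPKβ1-/- vehicle and 521, 566 and 489 in AMPKβ1-/- PF. All 3 WT vehicle libraries exceeded all others. It fell by 0.28 on the log2 scale with PF in WT (SE 0.076, edgeR adjusted p = 0.0234) and differed by −0.41 ± 0.076 between genotypes with vehicle (adjusted p = 0.000382). With PF the genotypes differed by −0.12 (adjusted p = 0.22), in AMPKβ1-/- the PF change was 0.012 (95% interval −0.15 to 0.17), and the difference of the responses was −0.30 (adjusted p = 0.234). Removing the trend left −0.030 for PF in WT and −0.015 between genotypes with vehicle (adjusted p = 0.816 and 0.869). The PF call in WT was lost on leaving out library 1 or 3 of WT vehicle, or 2 or 3 of WT PF (adjusted p = 0.0771, 0.0545, 0.0666 and 0.132).

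Map2k3, for the p38 activator MKK3, was the 1 of the 9 that passed no test with the deposited counts. It stood at 174, 158 and 164 CPM in WT vehicle, 153, 147 and 134 in WT PF, 170, 149 and 156 in AMPKβ1-/- vehicle and 127, 143 and 151 in AMPKβ1-/- PF. Means were lower with PF in both genotypes, with log2 changes of −0.19 (95% interval −0.37 to −0.011, edgeR adjusted p = 0.121) and −0.17 (interval −0.35 to 0.013, adjusted p = 0.982), and a difference between them of −0.025 (interval −0.28 to 0.23). Between genotypes with vehicle it differed by −0.067 (adjusted p = 0.512). With the trend removed this became 0.27 (adjusted p = 0.00228), and 0.17 with PF (adjusted p = 0.0353). The sign turned as well with scaling by library size alone (0.14 and 0.11).

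TAK1 stands above both stress-activated arms, and its gene was higher in AMPKβ1-/- than in WT BMDMs with either treatment in the deposited counts. Map3k7 had 179, 275 and 187 counts in WT vehicle (19.1, 25.4 and 18.6 CPM), 307, 308 and 526 in WT PF (26.3, 28.8 and 40.5 CPM), 458, 735 and 411 in AMPKβ1-/- vehicle (41.8, 47.9 and 43.6 CPM) and 552, 540 and 524 in AMPKβ1-/- PF (48.1, 42.4 and 48.7 CPM). No WT library reached the AMPKβ1-/- libraries, and the WT PF libraries lay above those with vehicle. The change was 2.11-fold between genotypes with vehicle (log2 1.08 ± 0.15, edgeR adjusted p = 9.59e-05) and 1.45-fold with PF (log2 0.54 ± 0.15, adjusted p = 0.00837). PF changed it 1.51-fold in WT (log2 0.60 ± 0.16, adjusted p = 0.0222), by 0.06 in AMPKβ1-/- (95% interval −0.25 to 0.37), and the responses differed by 0.54 (adjusted p = 0.279).

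The genotype difference of Map3k7 with vehicle was called in all 13 alternative settings, over a range of 0.43 to 1.28, where 0.43 (adjusted p = 0.00277) is the value with the GC and length trend removed. With PF it was 0.063 (adjusted p = 0.625) after that removal. The PF change in WT was 0.34 (adjusted p = 0.0486) after it. This PF call was lost on leaving out library 1 or 3 of WT vehicle (0.54 and 0.52, adjusted p = 0.0879 and 0.0864), or the WT PF library with 526 counts, number 3 (0.39, adjusted p = 0.115).

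With library size in place of TMM factors (0.881 to 1.09), the median of all tested genes moved by 0.21 between genotypes with vehicle and by 0.15 with PF on the log2 scale, and by 0.081 for PF in WT. Values here are relative to the TMM scale. With library size alone the tested genes called with PF in WT were 1045 higher and 587 lower (756 and 969 with TMM), between genotypes with vehicle 4296 and 1600 (3216 and 3249), and with PF 3444 and 1359 (2613 and 2481). Of the 9 genes, 5 were then higher and 0 lower between genotypes with PF, against 2 and 1.

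The changes of the 9 genes followed the GC content of their transcripts. The 4 genes at or below 45.7% GC (Mapk8, Map2k4, Map3k7 and Mapk9) had the 4 highest log2 fold changes both with PF in WT and between genotypes with vehicle, and the 2 at 57.6% (Mapk3 and Mapkapk2) the lowest between genotypes. Spearman's rho between GC content and log2 fold change was −0.879 over the 9 genes with PF in WT and −0.962 between genotypes with vehicle. Over all tested genes it was −0.706 and −0.765. After removal of the trend, rho over the 9 genes was still −0.812 with PF in WT, and −0.402 between genotypes with vehicle. Genes share their libraries and are not independent replicates, so these are descriptions. The last position of codons had the same extremes, from 42.4% GC in Mapk8 to 75.3% in Mapk3. With the trend removed, 2 of the 9 passed the test with PF in WT (Mapk14 lower, Map3k7 higher) against 7.31% of tested genes in either direction, and 3 between genotypes with vehicle (Map2k1, Map2k3 and Map3k7, all higher) against 34.4%. With PF in both genotypes 4 passed, Mapk14, Map2k1 and Map2k3 higher and Mapk8 lower in AMPKβ1-/-, against 37.8%.

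**Figure D3:**
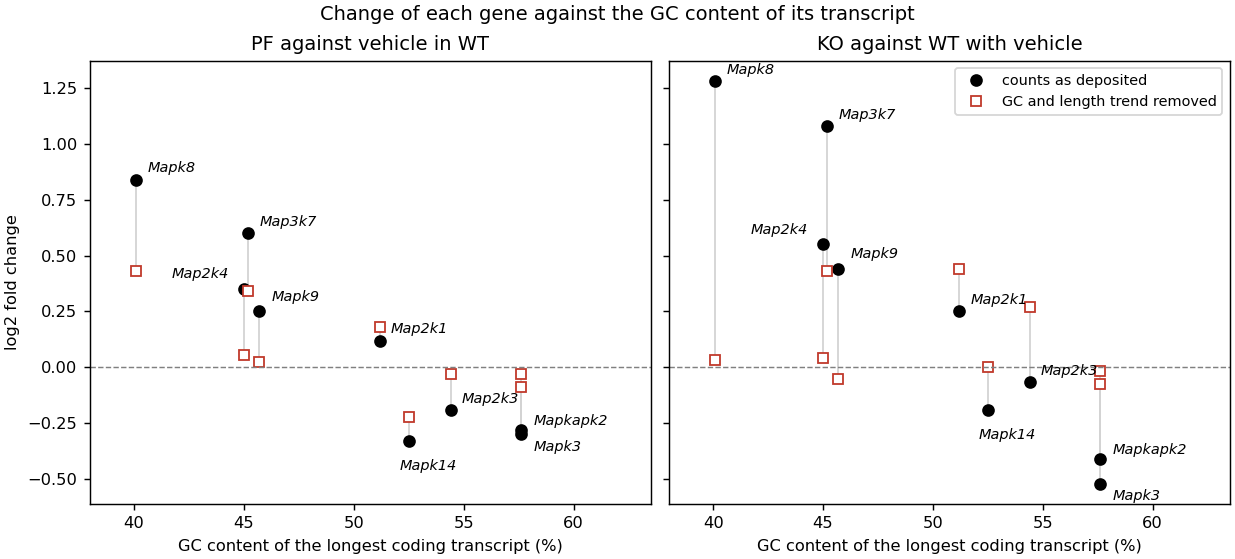
Log2 fold change (y axis) of the 9 genes against the GC content of the longest coding transcript (x axis, %), for PF against vehicle in WT and for KO against WT with vehicle; filled circles are the deposited counts, open squares the values with the GC and length trend removed, and grey lines join the values of a gene. Mapk8 moved from 1.28 to 0.032 between genotypes, Map3k7 from 1.08 to 0.43, and Mapk14 from −0.33 to −0.22 with PF in WT.

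The balance between the JNK genes was compared as a ratio within each library, which needs no scaling between libraries. JNK1 (Mapk8) made up 5.95% to 8.70% of the summed JNK1 and JNK2 counts in WT vehicle, 8.32% to 13.2% in WT PF, 12.7% to 13.5% in AMPKβ1-/- vehicle and 13% to 16.5% in AMPKβ1-/- PF. All AMPKβ1-/- vehicle libraries were above all WT vehicle libraries, and WT PF reached into the range of the AMPKβ1-/- groups. The log2 ratio was 0.63 higher in AMPKβ1-/- than in WT over both treatments (exact permutation test within treatments, two-sided, p = 0.01, where 0.005 is the smallest p that the 400 permutations allow). Mapk8 has a lower GC content than Mapk9 (40.1% against 45.7%), and the difference turned to −0.19 with the trend removed (exact permutation p = 0.275).

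**Figure D4:**
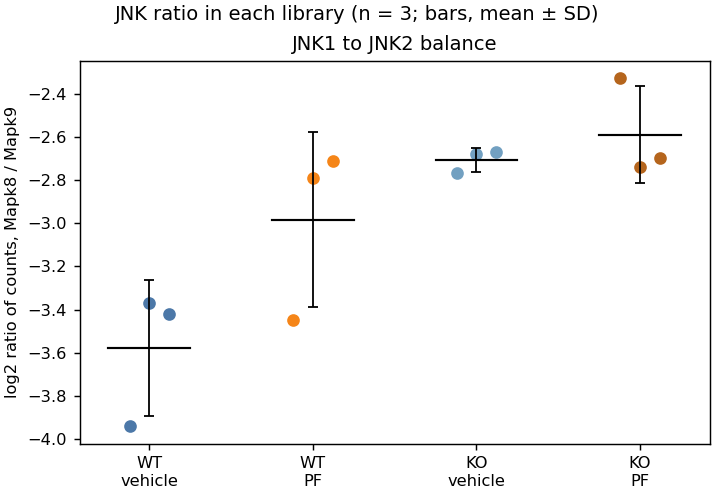
Log2 ratio of the counts (y axis, not from 0) of Mapk8 to Mapk9 in each library of the 4 groups (x axis); points are libraries and bars mean ± SD (n = 3). The mean ratio was −3.58 in WT vehicle, −2.98 in WT PF, −2.71 in KO vehicle and −2.59 in KO PF.

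Of 54 further cascade genes, 51 could be tested, and with PF in WT 4 of these were higher and 10 lower (median log2 fold change −0.084, against 0.0048 over all tested genes), where 6.99% and 8.95% of tested genes were. In AMPKβ1-/- PF called 0 of the 51 by edgeR, against 0.0554% of tested genes. At an unadjusted p below 0.05 there were 0, against 4.98%. DESeq2 called 0 of the 51 there, and 45 higher and 1 lower over all genes. Between genotypes with vehicle 13 were higher and 15 lower (median −0.072, against −0.026 for all tested genes), where 29.7% of tested genes were higher and 30.0% lower. With PF 12 were higher and 10 lower, against 24.1% and 22.9% of tested genes. The difference of the responses was called for 0 of the 51 by edgeR, against 0.416% of tested genes. Of the 51, 12 had an unadjusted p below 0.05, against 14.3% of tested genes. DESeq2 called 1 in each direction of the 37 that it gave an adjusted p, and 77 higher and 124 lower over all genes. With the trend removed, 3 were higher and 2 lower with PF in WT (7.31% of tested genes were called), and 10 higher and 5 lower between genotypes with vehicle (34.4% were called). The difference of the responses was then called for 1 of the 51, Dusp4 (0.44, adjusted p = 0.0458), against 1.66% of tested genes.

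Among the other MAPKs and MAP2Ks, 7 of 10 were tested. With PF in WT 1 rose and 2 fell by edgeR, against 6.99% and 8.95% of tested genes. Mapk6, for the atypical kinase ERK3, rose by 0.57 (adjusted p = 0.0142), and the JNK activator gene Map2k7 and the ERK5 gene Mapk7 changed by −0.30 and −0.29 (adjusted p = 0.0361 and 0.0446). Of these only Mapk6 kept its call with the trend removed (0.32, adjusted p = 0.0151). Between genotypes with vehicle 1 was higher and 5 lower, against 29.7% and 30.0% of tested genes. Map2k2, for MEK2, was at −0.53 (adjusted p = 0.00039), beside Map2k5 at −0.44 (adjusted p = 0.00179), which acts on ERK5, and Map2k7 at −0.39 (adjusted p = 0.00203). None of these 3 was called with the trend removed. Map2k6, for MKK6, another p38 activator, had the largest change of this list and is named after its values were seen: it was at −1.02 (adjusted p = 0.0136), and at −1.16 with the trend removed (adjusted p = 0.00775).

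The MAP3Ks and adaptors held the largest genotype differences of the wider cascade in the deposited counts, though not with the trend removed, where Map2k6 was farthest from 0. All 20 were tested, and between genotypes with vehicle 8 were higher and 4 lower, against 29.7% and 30.0% of tested genes. Map3k2, a MAP3K of the JNK and ERK5 pathways, was 4.27-fold higher (log2 2.09 ± 0.24, adjusted p = 3.52e-05) and Tab3, a binding partner of TAK1, 4.3-fold (log2 2.10 ± 0.35, adjusted p = 0.000204) by edgeR. Both stayed called with the trend removed, at 0.61 and 0.97 (adjusted p = 0.00174 and 0.00772). Braf, a RAF kinase that activates MEK1, was 2.86-fold higher (adjusted p = 0.000185), and 0.39 on the log2 scale with the trend removed (adjusted p = 0.0895). With PF in WT 1 rose and 3 fell, against 6.99% and 8.95% of tested genes. The MEK1 scaffold gene Lamtor3 had 0.55 (edgeR adjusted p = 0.00292). Map3k11, for the mixed-lineage kinase MLK3, had −0.44 (adjusted p = 0.00997) and Araf −0.32 (adjusted p = 0.0216). Araf alone of these 3 was called with the trend removed (−0.58, adjusted p = 0.0166).

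The effector kinases act below ERK and p38, and all 8 were tested. With PF in WT 0 rose and 3 fell by edgeR, against 6.99% and 8.95% of tested genes. Of the 8, 4 had an unadjusted p below 0.05, as did 3823 of the 10822 tested genes. DESeq2, run on the same counts, gave 0 and 3, and 1060 higher and 971 lower over all genes. Rps6ka1, for the ERK-activated kinase RSK1, had −0.53 (edgeR adjusted p = 0.00295). Mknk2, for a kinase of the translation factor eIF4E, had −0.28 (adjusted p = 0.032) and Rps6ka4, for MSK2, −0.28 (adjusted p = 0.0487). Rps6ka1 stayed called with the trend removed (−0.29, adjusted p = 0.00343), where Mknk2 and Rps6ka4 were at 0.0028 and 0.0004. Between genotypes with vehicle 2 were higher and 5 lower, against 29.7% and 30.0% of tested genes. Rps6ka3, for RSK2, was 2.84-fold higher (adjusted p = 0.000152), and Mapkapk3, the relative of MK2, and Rps6ka4 were at −0.47 and −0.51 (adjusted p = 0.000284 and 0.000293). None of these 3 passed with the trend removed.

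The phosphatases of the wider cascade were all 16 tested, and most did not pass. With PF in WT 2 rose and 2 fell by edgeR, against 6.99% and 8.95% of tested genes. Dusp1, the nuclear phosphatase that acts on p38 and JNK, had −0.46 ± 0.11 (adjusted p = 0.0162), Ptpn7, which acts on ERK and p38, −0.40 (adjusted p = 0.0117) and Dusp4, another nuclear MAPK phosphatase, 0.35 (adjusted p = 0.019). With the trend removed Dusp4 was at 0.57 (adjusted p = 0.000118), and Dusp1 and Ptpn7 at −0.29 and −0.28 (adjusted p = 0.0631 and 0.0581). Between genotypes with vehicle 2 were higher and 1 lower, against 29.7% and 30.0% of tested genes. Dusp1 was 0.54 ± 0.11 higher in AMPKβ1-/- (adjusted p = 0.000612) and 0.91 higher with the trend removed, Ppm1b, for a phosphatase of TAK1, was 0.49 higher (adjusted p = 0.00549) and Ptpn7 was at −0.28 (adjusted p = 0.0145). Neither Ppm1b nor Ptpn7 passed with the trend removed (−0.024 and −0.045).

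**Figure D5:**
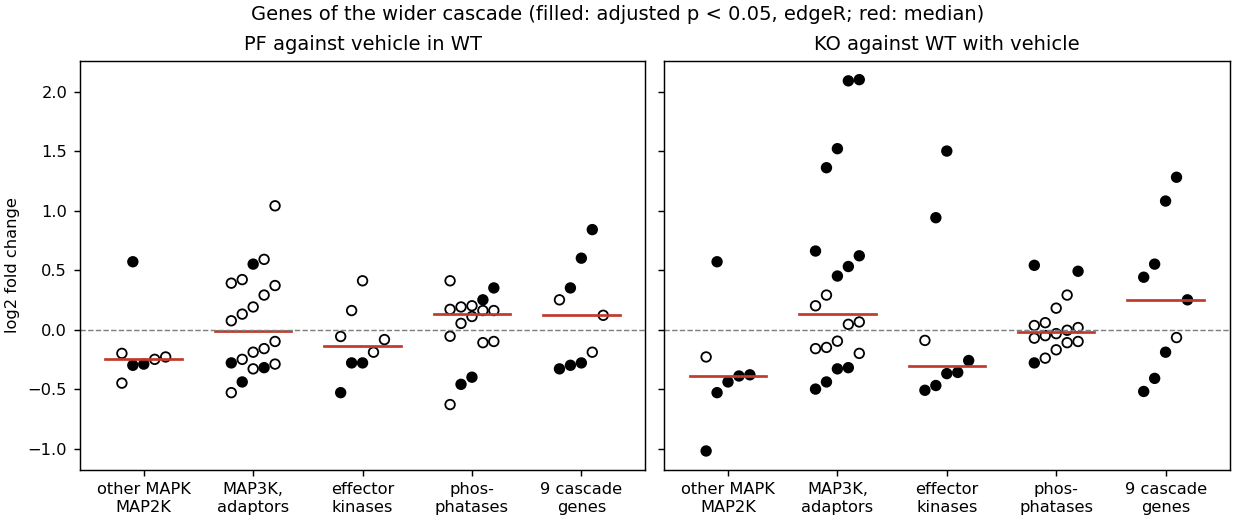
Log2 fold change (y axis) of each tested gene of the 4 lists of the wider cascade and of the 9 cascade genes described above (x axis), with PF in WT and for KO against WT with vehicle; filled points had an adjusted p below 0.05, red lines are medians, and sideways position has no meaning. The highest values between genotypes, 2.10 and 2.09, were those of the adaptor and MAP3K genes Tab3 and Map3k2.

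Outside the cascade lists, the gene whose level was most like that of each of the 9 was taken by Pearson's r of log2 CPM over the 12 libraries, which share groups and the GC trend. These were Capn1 for Mapk3 (r = 0.994), Nck1 for Mapk8 (0.992), Tdrd3 for Mapk9 (0.982), Icam1 for Mapk14 (0.991), Tlk2 for Map2k1 (0.978), Jmjd6 for Map2k3 (0.927), Ssx2ip for Map2k4 (0.965), Pafah1b1 for Map3k7 (0.99) and Cdkn1a for Mapkapk2 (0.981). Such high values were common for some and rare for others. Mapk3, Mapk8 and Map3k7 each had 1349 to 1440 genes with r above 0.9, and Mapk14 had 65 and Map2k3 4.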

How the data were processed

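RNA sequencing was done on BMDMs of 4 groups with 3 libraries each. Per the labels and the paper, the authors made stranded libraries, trimmed reads with Trim Galore and quantified them with Salmon. The values the authors deposited are estimated counts of each gene as integers, not normalized. The genome build and tool versions are not given in the sources used here. Columns were mapped to groups by name.

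Counts were tested in R 4.3.3 with edgeR 4.0.16 (robust quasi-likelihood test, TMM, filterByExpr by group; 10822 of 12960 genes kept, all 12 libraries in 1 fit), with Benjamini-Hochberg adjustment over the tested genes and calls at an adjusted p below 0.05. DESeq2 1.42.0 was an alternative. CPM are TMM-normalized, correlations used log2 CPM with a prior count of 2, and the JNK ratio added 0.5 counts. SEs are approximate (log2 fold change over the root of F). The GC and length trend was a spline (5 degrees of freedom each) fitted to each library's log2 CPM relative to the mean, over the longest coding transcript of GENCODE M21, and used as an offset. Of the 12960 symbols 12703 matched directly, 194 through older symbols and 63 not. Replicate libraries differed by 2.19 to 18.5 times the counting variance, so none was a duplicate. The script was tested on simulated data.

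The 9 genes, the lists and the naming rule were chosen with earlier results of these data known. The rule named all 9, Prkab1, up to 3 called genes of each cascade list with the smallest p with PF in WT and between genotypes with vehicle, and the nearest gene of each of the 9. The authors' fold changes, the reads and the animal experiments were not used here. A further planned ratio is not reported here.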

Additional observations from a re-analysis of the deposited data

How the results depend on the processing

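With PF in WT 6 of the 9 genes were called. The count was 2 with the GC and length trend as an offset and 0 in the fit of the 6 WT libraries alone (6 at an unadjusted p below 0.05). On leaving out 1 library it was 1 to 6: 1 without WT vehicle library 1 or WT PF library 3, and 2 without WT vehicle library 3 or WT PF library 2. Calls over all genes fell as well, from 756 higher and 969 lower to 355 and 436 with the offset. In the WT libraries alone they were 210 and 209. They were 186 and 353 without WT vehicle library 1, 129 and 217 without WT PF library 3, and 185 and 268 without WT PF library 2. Without WT vehicle library 3 they were 260 and 439. They rose to 1622 and 1621 without WT PF library 1, where 6 of the 9 were called. Between genotypes with vehicle the count of the 9 was 8, with 3 under the offset and 6 to 8 on leaving out 1 library. Calls over all genes there went from 3216 higher and 3249 lower to 1558 and 2168 under the offset. Between genotypes with PF the count of the 9 was 3, with 5 under scaling by library size alone and 1 to 4 on leaving out 1 library. It was 1 without WT PF library 1 or AMPKβ1-/- PF library 1 or 3. Without these in turn, calls over all genes went from 2613 higher and 2481 lower to 2080 and 1830, 2052 and 1862, and 2138 and 1801. For the difference of the responses the count of the 9 was 0, and 1 by DESeq2, which gave an adjusted p for 8 of the 9. Over all genes DESeq2 called 77 higher and 124 lower there, and edgeR 19 and 26. The JNK balance turned to −0.19 with the trend removed. What the offset removes, technical or not, was not tested.

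Signs that turned were mostly of small values. Under the offset they were, with PF in AMPKβ1-/-, Mapk8 −0.17, Mapk9 −0.032, Map3k7 −0.027 and Mapk14 0.027; between genotypes with vehicle Mapk9 −0.053, Mapk14 0.0026 and Map2k3 0.27; with PF Mapk3 0.0094, Mapk8 −0.57, Mapk9 −0.11, Map2k3 0.17, Map2k4 −0.17 and Mapkapk2 0.067; and for the difference Map2k3 0.10. Under library size alone they were Mapk14 0.012 with PF in AMPKβ1-/-, Mapk14 0.019 and Map2k3 0.14 between genotypes with vehicle, Map2k3 0.11 and Mapkapk2 0.033 with PF, and Map2k3 0.035 for the difference. Mapk14 with PF in AMPKβ1-/- was 0.005 under DESeq2 size factors and 0.0048 by DESeq2. On leaving out 1 library, Mapk14 ranged from −0.025 to 0.016 and Mapkapk2 from −0.046 to 0.061 with PF in AMPKβ1-/-, Map2k3 from −0.098 to 0.024 between genotypes with PF, and the difference from −0.022 to 0.16 for Map2k1 and −0.092 to 0.032 for Map2k3.

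Same-numbered libraries deviated with correlations of −0.17 to 0.32, so a shared number was not taken as a pair. With the library number as a replicate block the count with PF in WT was 5, with Map2k4 at 0.34 (adjusted p = 0.0517), and no other call of the 9 genes changed. Counts of 15 to 97 limit Mapk8.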
